A study of Homo sapiens with 15 samples.

Results

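RNA from HT1080 cells with an inactive form of KDAC4, H803A, was set against RNA from HT1080 cells with its enhanced form, H976Y, and the comparison used 7 of the 15 samples of the series. They were defined by their labels, with earlier results of these data known. They were 3 libraries of genotype HDAC4 H803A (replicates 1 to 3) and 4 of genotype HDAC4 H976Y (replicates 1 to 4). HT1080 is an established human fibrosarcoma line, and neither group received a treatment. The other groups of the series, 4 libraries with inactive KDAC7 (H709A) and 3 of wild-type cells given the inhibitor TMP195, entered only the shared model of the spread, and untreated wild-type cells were not used here. The question is which transcripts differ between cells with inactivated and cells with enhanced KDAC4. The deposited column of KDAC4 H803A replicate 4 was left out, because 96.8% of 7612 genes with a single transcript stood there at the transcript's length minus 248.86 bases. That is an effective length and not a count. Whether each variant is 1 clone or several, whether every allele carries the change, and whether samples came from separate cultures is not given in the sources used here. The p-values therefore measure only the spread between these libraries, which may be technical. Wild-type KDAC4 is not among the groups compared, so a gene given as higher with KDAC4 H803A is equally a gene lower with KDAC4 H976Y.

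KDAC4, encoded by HDAC4, is a class IIa lysine deacetylase. Enzymes of this class bind transcription factors of the MEF2 family through their amino-terminal part and bring the NCoR and SMRT corepressors, which carry the active deacetylase HDAC3. Their own catalytic domain is weak on acetylated lysine because a histidine stands where other deacetylases have a tyrosine, and replacing that histidine by tyrosine restores activity. Replacing a histidine of the active site by alanine removes it. Salt-inducible kinases, protein kinase D and calmodulin kinases phosphorylate class IIa enzymes, after which 14-3-3 proteins hold them in the cytoplasm. In a fibrosarcoma line these enzymes act in cells that already express mesenchymal matrix and adhesion genes.

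Cells with KDAC4 H803A had more mRNA of the matricellular genes CYR61 and CTGF (log2 fold changes 2.44 ± 0.28 and 2.43 ± 0.36) and less of fibronectin (FN1, -2.18 ± 0.49), the protease MMP14 (-1.15 ± 0.19) and the peptidase ANPEP (-1.64 ± 0.26) than cells with KDAC4 H976Y, 3 against 4 libraries. MGMT, CNTN3 and ZNF22 had counts with KDAC4 H803A only, and HEPH, DOCK8 and UNC13C with KDAC4 H976Y only, within this pair of groups. Of 33 homeobox genes tested 13 were called higher and 0 lower, and of 30 proteasome subunits 0 were called higher and 15 lower, beside 9.21% higher and 5.85% lower of all genes. These counts without the library labelled KDAC4 H803A replicate 1 were 17 and 5, and 0 and 27, beside 22.4% and 22.9% of all genes. The libraries labelled KDAC4 H803A were at least 2-fold apart from each other in up to 7820 of 17780 genes.

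The libraries of the KDAC4 H803A group did not resemble each other. On log2(CPM + 1), where CPM is counts per 1000000 counts of the scaled library size, the library labelled KDAC4 H803A replicate 1 was at least 2-fold from replicates 2 and 3 in 7520 and 7820 of 17780 genes, while replicates 2 and 3 were that far apart in 298. It was that far from KDAC7 H709A replicate 4 in only 46 genes, the fewest of any pair. KDAC7 H709A replicate 1 in turn was 1427 and 1453 genes from KDAC4 H803A replicates 2 and 3 and 5193 to 6948 genes from its own group. The 4 KDAC4 H976Y libraries were 96 to 1524 genes apart, and replicate 4 was in each of the pairs above 1000. In 24.35% of the genes tested, replicates 2 and 3 of KDAC4 H803A lay on one side of all 4 KDAC4 H976Y libraries and the library labelled replicate 1 on the other. Each direction below that uses all 3 KDAC4 H803A libraries rests in part on a library that was unlike the other 2 of its label in many genes. Its genotype was not checked here. Values are therefore given per library and with that library left out.

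**Figure D1:**
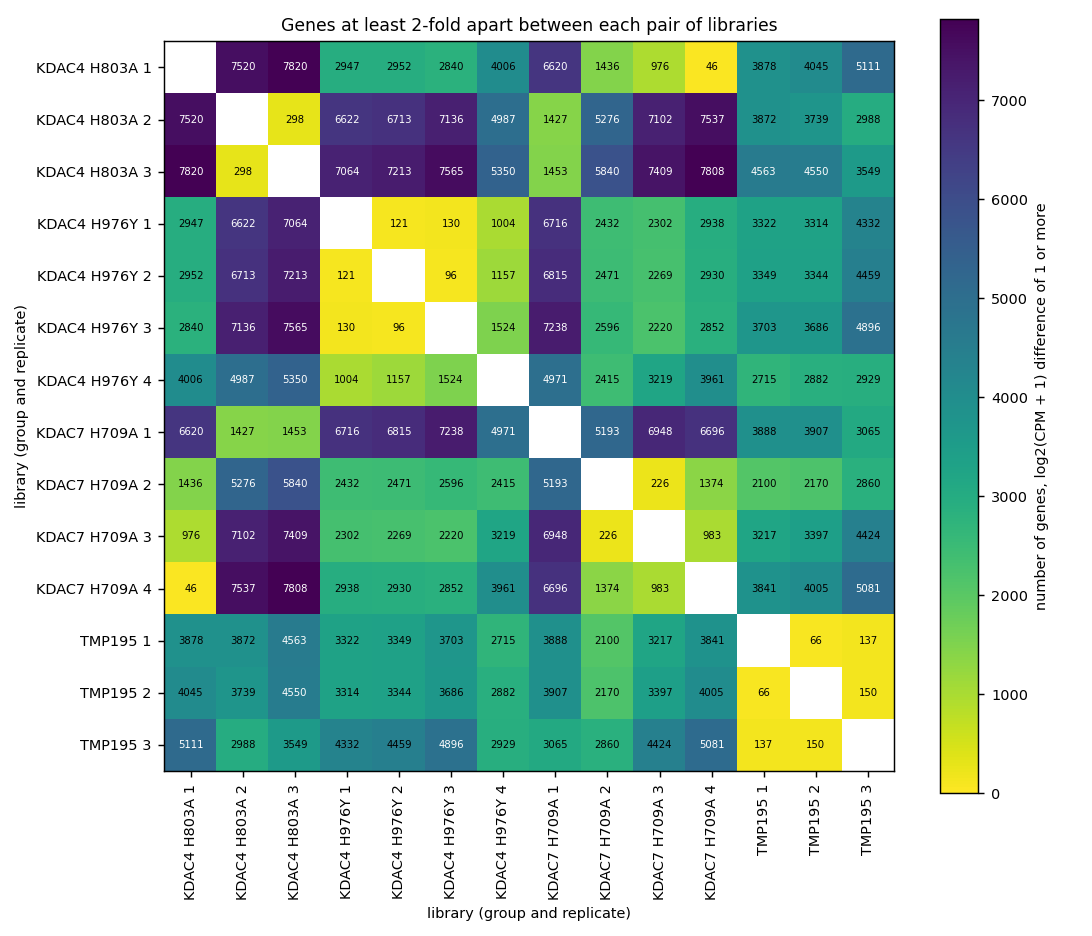
Number of genes at least 2-fold apart on log2(CPM + 1) for each pair of the 14 count libraries (rows and columns are libraries by group and replicate, colour and printed number are genes of 17780). The library labelled KDAC4 H803A replicate 1 is 46 genes from KDAC7 H709A replicate 4 and 7520 and 7820 genes from replicates 2 and 3 of its own group.

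The KDAC4 H803A libraries held 15640829, 9189241 and 8909856 counts, and the KDAC4 H976Y libraries between 6151383 and 11343879. Several measures moved with the genotype. Mitochondrial ribosomal RNA made up 16.1% to 31.5% of the counts of KDAC4 H976Y and at most 0.0256% of those of KDAC4 H803A. Mitochondrially encoded mRNA made up 0.676% to 1.41% against 6.45% to 14.7%, and small nucleolar RNA 0.722% to 0.913% against 0.0289% to 0.101%. The most GC-rich quintile of genes exceeded the most GC-poor one by 1.48 and 1.41 (log2, each gene relative to its mean over the 14 libraries) in KDAC4 H803A replicates 2 and 3. The same difference was -1.17 in the library labelled replicate 1 and -0.29 to -0.54 in KDAC4 H976Y. Summed levels of the 16 mesenchymal markers were 5555 to 10250 CPM with KDAC4 H803A and 7771 to 11114 CPM with KDAC4 H976Y, with PDGFRA at 0 in both. The 10 epithelial markers summed to 15.02 to 20.96 CPM against 7.18 to 11.3 CPM, with CDH1, KRT14 and KRT19 at 0 in KDAC4 H803A and EPCAM, KRT5 and ESRP1 at 0 in KDAC4 H976Y. The 8 endothelial markers summed to 112.1 to 134 CPM against 68.6 to 90.7 CPM, with ERG at 0 in both, PECAM1 at 0 in KDAC4 H803A and CDH5 at 0 in KDAC4 H976Y. The 10 neural markers summed to 108.7 to 147.2 CPM against 174.5 to 259 CPM, with STMN2 and ELAVL4 at 0 in both. The 8 blood cell markers summed to 153.1 to 170 CPM against 39.8 to 60.7 CPM, with PTPRC and HBB at 0 in both and CD3E and CD14 also at 0 in KDAC4 H803A. LCP1, an actin-bundling protein also made by many tumour lines, made up 141 to 164 CPM of the former and 33.8 to 57.2 CPM of the latter. In bulk RNA fewer cells of a type and less RNA per cell cannot be told apart. The part of the mitochondrial, small nucleolar and GC measures in the gene calls was not tested gene by gene. A fit with GC and length offsets is given where it ends a call. A fit without the mitochondrial, ribosomal and small nucleolar RNA genes called 2695 genes. Of these, 2646 were called in the same direction with these genes included. That fit removes only the counts of those genes and does not test the part of library makeup in the other calls. Mitochondrial ribosomal RNA made up at most 0.345% of the counts of any KDAC7 H709A or TMP195 library. Genotype and library makeup cannot be told apart in this comparison.

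A gene is called here at an adjusted p under 0.05 in edgeR's quasi-likelihood test over all 17780 genes. Of these, 2679 were called (15.1%), 1638 higher (9.21%) and 1041 lower (5.85%) with KDAC4 H803A, and 1972 of them (11.1%) differed by at least 2-fold. The 3 and the 4 libraries did not overlap in 4109 genes (23.1%), 2153 with KDAC4 H803A above (12.1%) and 1956 with it below (11%). Replicates 2 and 3 alone did not overlap with KDAC4 H976Y in 12371 genes (69.6%). Among the called genes 1353 of the higher and 970 of the lower did not overlap. Without the library labelled replicate 1, 8431 of 18610 genes were called (45.3%), 4167 higher (22.4%) and 4264 lower (22.9%). Of the calls with all libraries, 1558 of the 1638 and 1025 of the 1041 were again called in the same direction. Fitted on the 7 libraries alone, 1634 of 15256 genes were called (10.7%). The higher share of the calls was 61.1% with all libraries, 49.4% without the library labelled replicate 1 and 51.6% with GC and length offsets, so the excess of higher over lower calls depended on that library and on that correction. Called genes that code for protein had a median GC content of 52.8% where higher and 47.7% where lower, beside 48.2% over all such genes tested, and median longest transcripts of 4357, 2599.5 and 3723 bases. The genes described individually below are, unless said otherwise, protein-coding, called, without overlap between the groups, and called in the same direction without the library labelled replicate 1 (1020 higher and 816 lower).

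CYR61, CTGF and AMOTL2 were 3 of the 12 higher genes with the largest differences of mean CPM. As background, each is known as a target of the YAP and TEAD transcription factors, whose targets were not counted here as a list. CYR61 (ENSG00000142871, chromosome 1, 85580761 to 85583962 on GRCh38), also called CCN1, encodes a secreted matricellular protein. It stood at 790.3, 641 and 788 CPM with KDAC4 H803A and 116, 152, 126 and 151 CPM with KDAC4 H976Y. In CYR61 the log2 fold change was 2.44 ± 0.28 (adjusted p = 0.000206). The 3 KDAC4 H803A libraries lay close together and, as the rule that chose the gene required, all lay above the 4 others. CTGF (ENSG00000118523, chromosome 6, 131948176 to 131951373), also called CCN2, is its close relative. It stood at 643, 308 and 312 CPM with KDAC4 H803A and 76.02, 82.3, 81.6 and 71.9 CPM with KDAC4 H976Y. CTGF differed by a log2 fold change of 2.43 ± 0.36 (adjusted p = 0.00111), with the library labelled replicate 1 highest. AMOTL2 (ENSG00000114019, chromosome 3, 134355874 to 134375479), a junction protein of the angiomotin family that restrains YAP, stood at 336, 493 and 473 CPM with KDAC4 H803A and 173, 178, 172 and 152 CPM with KDAC4 H976Y. AMOTL2 had a log2 fold change of 1.36 ± 0.19 (adjusted p = 0.000823). Here the library labelled replicate 1 was the lowest of its group and, as the same rule required, above every KDAC4 H976Y library. All 3 were called under each of the 30 alternative settings, which left out libraries in turn or changed the scaling, filter, tool or model. The same genes stood at 543 to 1393, 324 to 931 and 276 to 442 CPM in KDAC7 H709A and at 729 to 772, 456 to 579 and 382 to 441 CPM with TMP195. These are values with no test, and KDAC4 H976Y was the lowest group for each.

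The sequence before the start of CTGF is shown because TEAD factors are known to act through sites there. The 250 bases before its RefSeq start (GRCh38.p14, chr6:131951373-131951622, minus strand) hold GGAATG or its reverse complement 3 times, in capitals:
CTGF: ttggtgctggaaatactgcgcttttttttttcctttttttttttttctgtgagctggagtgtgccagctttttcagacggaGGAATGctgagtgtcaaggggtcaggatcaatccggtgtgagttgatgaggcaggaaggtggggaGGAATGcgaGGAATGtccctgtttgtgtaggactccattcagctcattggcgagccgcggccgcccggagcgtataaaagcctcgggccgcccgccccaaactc
A match is a description of these letters and not of binding. Over 10692 protein-coding genes tested with a promoter in the RefSeq table, 9.35% held GGAATG on either strand within the 250 bases before the start, as did 9.04% of 985 genes called higher and 8.06% of 732 called lower. The consensus of MEF2, the factor family that KDAC4 binds, was found in 1.22% of the higher, 1.64% of the lower and 1.45% of all. The AP-1 motif TGANTCA was found in 3.25%, 5.05% and 3.97%, and the CREB motif TGACGTCA in 3.05%, 4.51% and 2.92%, in the same order.

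The other 9 of these 12 genes differ in function. HNRNPA2B1 (ENSG00000122566, chromosome 7, 26173057 to 26201529), an RNA-binding protein of splicing and RNA transport, stood at 694, 775 and 770.4 CPM with KDAC4 H803A and 353, 327, 341 and 447 CPM with KDAC4 H976Y. In HNRNPA2B1 the log2 fold change was 1.02 ± 0.16 (adjusted p = 0.00177). IGF2BP2 (ENSG00000073792, chromosome 3, 185643739 to 185825056), which binds and stabilises mRNAs, stood at 727, 467 and 556 CPM with KDAC4 H803A and 209.6, 217, 211 and 214 CPM with KDAC4 H976Y. IGF2BP2 differed by a log2 fold change of 1.45 ± 0.23 (adjusted p = 0.00155). OGT, the enzyme that adds N-acetylglucosamine to serine and threonine of intracellular proteins, stood at 695, 668 and 804 CPM with KDAC4 H803A and 299, 302, 274 and 424 CPM with KDAC4 H976Y. OGT had a log2 fold change of 1.15 ± 0.18 (adjusted p = 0.00134). The rule that chose these genes required groups without overlap, and each of these 3 was called under all 30 alternatives. PRRC2B, a cytoplasmic RNA-binding protein on chromosome 9, stood at 305, 717 and 723 CPM with KDAC4 H803A and 203, 206, 192 and 239 CPM with KDAC4 H976Y. In PRRC2B the log2 fold change was 1.47 ± 0.31 (adjusted p = 0.00799), with the library labelled replicate 1 well below the other 2. Its call ended with a model term for the replicate number (adjusted p = 0.0524). SRRM2, a scaffold of nuclear speckles, stood at 1061, 1543 and 1906 CPM with KDAC4 H803A and 570.0, 626, 577 and 802 CPM with KDAC4 H976Y. SRRM2 differed by a log2 fold change of 1.22 ± 0.36 (adjusted p = 0.0358). The spectraplakin MACF1, which links actin and microtubules, stood at 2192, 1591 and 1718 CPM with KDAC4 H803A and 966, 956, 984 and 1028 CPM with KDAC4 H976Y. MACF1 had a log2 fold change of 0.90 ± 0.21 (adjusted p = 0.0151). TRIO, an exchange factor for Rac, stood at 783, 1512 and 1784 CPM with KDAC4 H803A and 545, 562, 542 and 687 CPM with KDAC4 H976Y. In TRIO the log2 fold change was 1.22 ± 0.33 (adjusted p = 0.0286). The kinase MAP4K4 stood at 1129.8, 969 and 883 CPM with KDAC4 H803A and 645, 605, 644 and 554 CPM with KDAC4 H976Y. MAP4K4 differed by a log2 fold change of 0.70 ± 0.19 (adjusted p = 0.0265). The calls of SRRM2, MACF1, TRIO and MAP4K4 depended on single libraries. The call of SRRM2 ended without KDAC4 H803A replicates 2 or 3, KDAC4 H976Y replicates 1, 2 or 3, TMP195 replicates 1, 2 or 3 (adjusted p = 0.0525 to 0.14). That of MACF1 ended without KDAC4 H976Y replicates 1 or 2 (adjusted p = 0.0501 to 0.0514). That of TRIO ended without KDAC4 H803A replicates 2 or 3, KDAC4 H976Y replicates 1, 2 or 3 (adjusted p = 0.075 to 0.125). That of MAP4K4 ended without KDAC4 H803A replicates 2 or 3, KDAC4 H976Y replicates 1, 2 or 3, TMP195 replicates 1 or 2 (adjusted p = 0.0506 to 0.0792). The metallothionein MT2A, whose reads may be shared with its relatives, stood at 859, 450.3 and 393 CPM with KDAC4 H803A and 213, 256, 233 and 167 CPM with KDAC4 H976Y. MT2A had a log2 fold change of 1.39 ± 0.34 (adjusted p = 0.0168). It was highest in the library labelled replicate 1. The call of MT2A ended without KDAC4 H976Y replicates 1 or 3 (adjusted p = 0.0508 to 0.0556) and with GC and length offsets (adjusted p = 0.0838).

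Several genes of large differences in CPM that were lower with KDAC4 H803A encode matrix or cell-surface proteins. Fibronectin, FN1 (ENSG00000115414, chromosome 2, 215360440 to 215436172), the main fibrillar glycoprotein of mesenchymal cells, stood at 919, 338 and 189.7 CPM with KDAC4 H803A and 2479, 2324, 2464 and 1487 CPM with KDAC4 H976Y. In FN1 the log2 fold change was -2.18 ± 0.49 (adjusted p = 0.0111). The library labelled replicate 1 lay between its group and the KDAC4 H976Y libraries. Without it the difference was larger (log2 fold change -3.07, adjusted p = 0.000511). MMP14 (ENSG00000157227, chromosome 14, 22836557 to 22849027), the membrane-bound collagenase, stood at 651, 766 and 633 CPM with KDAC4 H803A and 1602, 1626, 1595 and 1227 CPM with KDAC4 H976Y. MMP14 differed by a log2 fold change of -1.15 ± 0.19 (adjusted p = 0.00229), and all 3 KDAC4 H803A libraries lay within a narrow range. ANPEP, the aminopeptidase CD13, stood at 518, 295 and 249.6 CPM with KDAC4 H803A and 1129, 1221, 1212 and 840.0 CPM with KDAC4 H976Y. ANPEP had a log2 fold change of -1.64 ± 0.26 (adjusted p = 0.0016). Both were called under all 30 alternatives. ITGA2 (ENSG00000164171, chromosome 5, 52989326 to 53094779), a collagen-binding integrin subunit, stood at 547, 106 and 89.6 CPM with KDAC4 H803A and 1231, 1267, 1319.7 and 869 CPM with KDAC4 H976Y. In ITGA2 the log2 fold change was -2.24 ± 0.61 (adjusted p = 0.0282), and without the library labelled replicate 1 a larger one (log2 fold change -3.60, adjusted p = 0.000456). COL6A3, a chain of collagen VI, stood at 1104, 1729 and 1411 CPM with KDAC4 H803A and 3110.3, 3189, 3121 and 2334 CPM with KDAC4 H976Y. COL6A3 differed by a log2 fold change of -1.05 ± 0.27 (adjusted p = 0.0223). NRP1, a co-receptor of VEGF and semaphorins, stood at 848, 383 and 316 CPM with KDAC4 H803A and 1186, 1242, 1329.6 and 868 CPM with KDAC4 H976Y. NRP1 had a log2 fold change of -1.16 ± 0.36 (adjusted p = 0.0432). In KDAC4 H976Y the lowest value of each of these 6 genes was that of replicate 4. The call of FN1 ended without KDAC4 H803A replicate 2 (adjusted p = 0.0581). That of ITGA2 ended without KDAC4 H803A replicates 2 or 3, KDAC4 H976Y replicates 1, 2 or 3 (adjusted p = 0.0666 to 0.118). The call of ITGA2 also ended on the 7 libraries of the comparison alone (adjusted p = 0.062). It ended with a model term for the replicate number as well (adjusted p = 0.0772). That of COL6A3 ended without KDAC4 H803A replicate 3, KDAC4 H976Y replicates 1, 2 or 3 (adjusted p = 0.0574 to 0.0806). That of NRP1 ended without KDAC4 H803A replicates 2 or 3, KDAC4 H976Y replicates 1, 2 or 3, KDAC7 H709A replicates 2 or 4, TMP195 replicates 1, 2 or 3 (adjusted p = 0.0514 to 0.2).

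The abundant transcripts RPS18 and RPL19, for ribosomal proteins, and FTL, for ferritin, were lower as well. Ribosomal protein genes were not counted here as a list. RPS18, a protein of the small ribosomal subunit, stood at 334, 214 and 187 CPM with KDAC4 H803A and 903, 937, 1002 and 529 CPM with KDAC4 H976Y. RPS18 had a log2 fold change of -1.78 ± 0.34 (adjusted p = 0.00458) and was called under all 30 alternatives. RPL19 of the large subunit stood at 599, 358 and 294 CPM with KDAC4 H803A and 1119.5, 1153, 1244 and 723 CPM with KDAC4 H976Y. RPL19 differed by a log2 fold change of -1.35 ± 0.32 (adjusted p = 0.0162). Ferritin light chain, FTL, stood at 760.3, 836 and 627 CPM with KDAC4 H803A and 1609, 1705, 1695 and 943 CPM with KDAC4 H976Y. In FTL the log2 fold change was -1.01 ± 0.26 (adjusted p = 0.0216). In each of these 3 genes KDAC4 H976Y replicate 4 was the library nearest to KDAC4 H803A. The call of RPL19 ended without KDAC4 H803A replicates 2 or 3, KDAC4 H976Y replicates 2 or 3 (adjusted p = 0.0511 to 0.0951). That of FTL ended without KDAC4 H803A replicates 2 or 3, KDAC4 H976Y replicates 1, 2 or 3 (adjusted p = 0.0548 to 0.11). The largest difference of mean CPM among these lower genes belonged to MTRNR2L1 (chromosome 17), a nuclear copy of the mitochondrial 16S ribosomal RNA gene, at 0, 0.484 and 5.59 CPM with KDAC4 H803A and 5350.2, 5182, 5540.4 and 11304 CPM with KDAC4 H976Y. MTRNR2L1 differed by a log2 fold change of -11.81 ± 2.38 (adjusted p = 0.00649). Its reads may be shared with mitochondrial ribosomal RNA, whose share of the counts separated the same libraries.

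**Figure D2:**
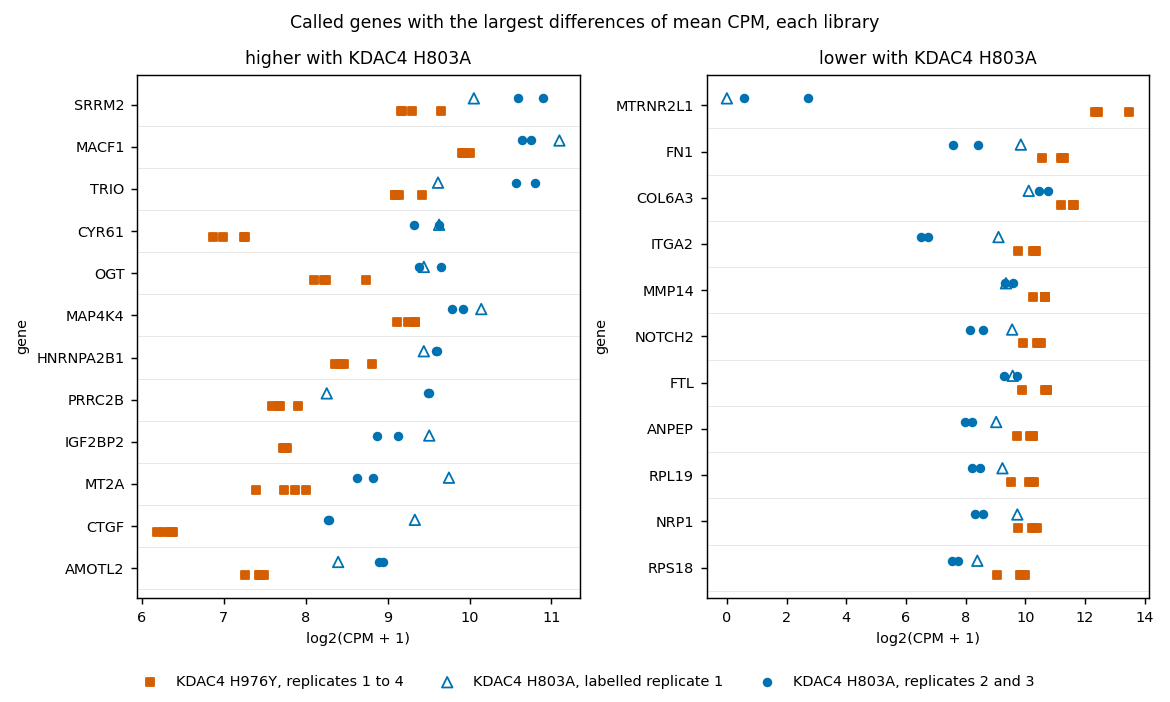
log2(CPM + 1) in each library (x axis) of called genes with the largest differences of mean CPM in each direction (12 higher and 11 lower) (y axis), squares for the 4 KDAC4 H976Y libraries, open triangles for the library labelled KDAC4 H803A replicate 1 and filled circles for replicates 2 and 3. No gene overlaps between the groups, as the rule that chose them required. The triangle lies nearer to the squares than the circles do for several genes, among them FN1, ITGA2, NOTCH2, NRP1, PRRC2B and TRIO. It lies beyond the circles for others, among them CTGF, MT2A, IGF2BP2 and MACF1.

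Some genes were without a count in 1 group. Of 1279 protein-coding genes called higher, 23 had 0 counts in all 4 KDAC4 H976Y libraries. Of 890 called lower, 10 had 0 counts in all 3 KDAC4 H803A libraries. They passed the filter on low counts only through the other groups. For such genes the fold is a lower bound set by 3 counts over the whole group, and bounds and ratios use counts over scaled library sizes summed over a group and cover counting error only. MGMT (ENSG00000170430, chromosome 10, 129467184 to 129768007), which removes alkyl groups from guanine in DNA, stood at 2.15, 5.91 and 7.68 CPM with KDAC4 H803A and at 0 in each KDAC4 H976Y library, at least 47.8-fold higher (adjusted p = 0.000145). CNTN3 (ENSG00000113805, chromosome 3, 74262568 to 74521140), a neural adhesion molecule of the contactin family, stood at 17.2, 6.201 and 9.54 CPM against 0 in each, at least 122-fold higher (adjusted p = 3.2e-05). TUSC1, on chromosome 9, stood at 4.69, 10.6 and 8.55 CPM, at least 75.6-fold higher (adjusted p = 6.87e-05). The zinc-finger gene ZNF22 stood at 41.5, 9.399 and 9.21 CPM, at least 242-fold higher (adjusted p = 0.000901). The tubulin gene TUBA3C on chromosome 13, which shares reads with near-identical copies, stood at 49.4, 26.6 and 19.5 CPM, at least 357-fold higher (adjusted p = 2.03e-05). These 5 genes had counts in every KDAC4 H803A library, as the condition of no overlap required, and were called under all 30 alternatives. Both other groups had counts of MGMT and CNTN3. MGMT stood at 3.23 to 4.95 CPM in KDAC7 H709A and 3.54 to 3.72 CPM with TMP195. CNTN3 stood at 13.4 to 18.6 and 3.79 to 5.14 CPM, so that KDAC4 H976Y was the group at 0. CD300E, an activating receptor of myeloid cells, stood at 1.14, 72.96 and 55.8 CPM and rested mostly on replicates 2 and 3 (at least 371-fold, adjusted p = 0.0184). Its call ended with a model term for the replicate number (adjusted p = 0.0574). AMIGO3, an adhesion protein, stood at 1.96, 16.6 and 13.2 CPM, at least 93.2-fold higher (adjusted p = 0.0446). TIMP3, an inhibitor of matrix metalloproteases, stood at 0.19001, 10.1 and 9.21 CPM, at least 55.3-fold higher (adjusted p = 0.0384). Both were at 0 with KDAC4 H976Y. The call of AMIGO3 ended without KDAC4 H803A replicates 2 or 3, KDAC4 H976Y replicates 1, 2, 3 or 4, KDAC7 H709A replicate 3, TMP195 replicates 1, 2 or 3 (adjusted p = 0.0537 to 0.104). The call of TIMP3 ended without KDAC4 H803A replicates 2 or 3, KDAC4 H976Y replicates 1, 2, 3 or 4, TMP195 replicates 1, 2 or 3 (adjusted p = 0.0561 to 0.0993).

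In the other direction, HEPH (ENSG00000089472, chromosome X, 66162549 to 66268867), the copper-dependent ferroxidase hephaestin, had 0 counts in each KDAC4 H803A library and stood at 12.1, 8.93, 8.34 and 7.42 CPM with KDAC4 H976Y, at least 109-fold lower with KDAC4 H803A (adjusted p = 0.000477). DOCK8 (ENSG00000107099, chromosome 9, 214854 to 465259), an exchange factor for Cdc42 best known from lymphocytes, had 0 counts against 7.04, 8.19, 9.203 and 5.56 CPM, at least 91.7-fold lower (adjusted p = 0.00103). UNC13C (ENSG00000137766, chromosome 15, 53978201 to 54633414), a factor of synaptic vesicle release, had 0 counts against 6.898, 5.21, 5.85 and 11.5 CPM, at least 79.8-fold lower (adjusted p = 0.00872). Each KDAC4 H803A library, also the library labelled replicate 1, was without a count of these 3 genes. GALNT13 (ENSG00000144278, chromosome 2, 153871913 to 154453849), which starts O-linked glycosylation, had 2 counts in KDAC4 H803A against 13.5, 11.1, 11.4 and 8.24 CPM, a ratio of 199 (95% counting interval 54.6 to 1647; adjusted p = 0.000429). The secreted protease ADAMTS18 (ENSG00000140873, chromosome 16, 77247813 to 77435114) stood at 3.04, 0.678 and 1.21 CPM with KDAC4 H803A and 55.6, 58.1, 64.3 and 60.8 CPM with KDAC4 H976Y. ADAMTS18 had a log2 fold change of -5.13 ± 0.54 (adjusted p = 9.48e-05). SOX7, an endothelial transcription factor, stood at 0.317, 0 and 0 CPM with KDAC4 H803A and 5.07, 7.02, 4.55 and 5.15 CPM with KDAC4 H976Y. In SOX7 the log2 fold change was -5.30 ± 0.82 (adjusted p = 0.00144). All 6 were called under each of the 30 alternatives. In the other groups HEPH stood at 0 to 0.0868 CPM (KDAC7 H709A) and 0.0635 to 0.611 CPM (TMP195). DOCK8 stood at 0 to 0.193 and 0 to 0.127 CPM, GALNT13 at 0 to 0.126 and 0.602 to 0.825 CPM and ADAMTS18 at 0.694 to 2.98 and 10.97 to 11.5 CPM. KDAC4 H976Y was thus the group with the highest level of each. The olfactory receptor gene OR51B2 stood at 0.633, 0 and 0 CPM with KDAC4 H803A and 11.7, 7.87, 7.15 and 15.7 CPM with KDAC4 H976Y. OR51B2 differed by a log2 fold change of -5.33 ± 1.35 (adjusted p = 0.0204). The call of OR51B2 ended without KDAC4 H803A replicates 2 or 3 (adjusted p = 0.0781 to 0.0833).

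Promoters of genes at 0 in 1 group are shown to set a CpG-rich start without counts in KDAC4 H976Y beside a CpG-rich and a CpG-poor start without them in KDAC4 H803A. The 250 bases before the RefSeq start (GRCh38.p14) are printed with CG in capitals, for MGMT (chr10:129466991-129467240, plus strand), DOCK8 (chr9:214615-214864, plus strand) and HEPH (chrX:66163997-66164246, plus strand):
MGMT: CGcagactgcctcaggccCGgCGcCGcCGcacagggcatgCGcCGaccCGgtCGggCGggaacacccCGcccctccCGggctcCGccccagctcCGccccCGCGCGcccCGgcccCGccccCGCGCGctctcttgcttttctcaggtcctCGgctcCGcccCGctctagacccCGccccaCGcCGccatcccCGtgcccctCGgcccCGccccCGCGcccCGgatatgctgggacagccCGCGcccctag
DOCK8: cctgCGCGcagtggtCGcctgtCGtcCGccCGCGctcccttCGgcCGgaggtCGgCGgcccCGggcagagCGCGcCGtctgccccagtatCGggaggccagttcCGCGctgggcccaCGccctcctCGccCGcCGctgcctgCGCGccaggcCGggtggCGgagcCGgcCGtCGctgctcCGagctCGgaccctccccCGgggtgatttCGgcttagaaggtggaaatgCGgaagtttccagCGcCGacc
HEPH: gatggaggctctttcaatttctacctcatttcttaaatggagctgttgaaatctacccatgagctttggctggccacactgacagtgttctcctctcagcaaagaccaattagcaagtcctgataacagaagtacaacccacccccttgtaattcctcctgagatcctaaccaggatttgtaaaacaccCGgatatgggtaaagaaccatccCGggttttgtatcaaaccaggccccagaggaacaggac
CG occurs 36 times in MGMT, 36 times in DOCK8 and 2 times in HEPH, beside a median of 21 over all 10692 promoters. Of the protein-coding genes called higher with 0 counts in KDAC4 H976Y, 17 had a promoter in the table, with 7 to 38 CG and a median of 22. Of those called lower with 0 counts in KDAC4 H803A, 7 had one, with 0 to 42 CG and a median of 15. DNA methylation was not measured in these samples.

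Of the genes for class IIa enzymes, HDAC5, HDAC7 and HDAC9 were called higher with KDAC4 H803A and HDAC4 was not called. HDAC4 (ENSG00000068024, chromosome 2, 239048168 to 239401654) stood at 17.5, 36.4 and 40.02 CPM with KDAC4 H803A and 15.2, 15.6, 15.9 and 21.8 CPM with KDAC4 H976Y. HDAC4 had a log2 fold change of 0.87 ± 0.56 (adjusted p = 0.278). The library labelled replicate 1 lay within the range of KDAC4 H976Y, and replicates 2 and 3 lay above it. Both variants are single amino acid changes, so this level checks no label. HDAC5 (ENSG00000108840, chromosome 17, 44076746 to 44123702) stood at 40.2, 74.7 and 63.3 CPM with KDAC4 H803A and 36.7, 32.02, 34.1 and 31.3 CPM with KDAC4 H976Y. In HDAC5 the log2 fold change was 0.82 ± 0.22 (adjusted p = 0.0268). The call of HDAC5 ended without KDAC4 H803A replicates 2 or 3, KDAC4 H976Y replicates 1, 2 or 3 (adjusted p = 0.0522 to 0.128) and with GC and length offsets (adjusted p = 0.345). HDAC9 (ENSG00000048052, chromosome 7, 18086949 to 19002416) stood at 122, 41.1 and 50.99 CPM with KDAC4 H803A and 33.9, 32.7, 33.2 and 29.04 CPM with KDAC4 H976Y. HDAC9 differed by a log2 fold change of 1.15 ± 0.30 (adjusted p = 0.024), with the library labelled replicate 1 far above the other 2. The call of HDAC9 ended without KDAC4 H803A replicate 1, KDAC4 H976Y replicates 1, 2, 3 or 4 (adjusted p = 0.0511 to 0.0723). HDAC7 stood at 215, 189 and 201 CPM with KDAC4 H803A and 70.4, 66.7, 64.5 and 74.97 CPM with KDAC4 H976Y. HDAC7 had a log2 fold change of 1.54 ± 0.46 (adjusted p = 0.0386). The call of HDAC7 ended without KDAC4 H803A replicates 2 or 3, KDAC4 H976Y replicates 1, 2, 3 or 4, TMP195 replicates 1, 2 or 3 (adjusted p = 0.0552 to 0.0987).

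Of 37 binding and shuttling partners of class IIa enzymes, all tested, 8 were called higher and 1 lower, beside 9.21% and 5.85% of all genes, and the list's median log2 fold change was 0.00 beside 0.09 over all genes. Without the library labelled replicate 1 the counts were 11 and 12, with a median of -0.30. With GC and length offsets they were 4 and 1, beside 1937 and 1817 of all 17780 genes. Among the factors that KDAC4 binds, MEF2D stood at 104, 151 and 126 CPM with KDAC4 H803A and 71.9, 80.2, 72.4 and 71.3 CPM with KDAC4 H976Y. In MEF2D the log2 fold change was 0.78 ± 0.16 (adjusted p = 0.00713), while MEF2A (-0.28 ± 0.41) and MEF2C (-0.52 ± 0.53) were not called. SRF, the serum response factor, stood at 68.03, 90.4 and 67.8 CPM with KDAC4 H803A and 38.6, 47.4, 44.3 and 31.9 CPM with KDAC4 H976Y. SRF differed by a log2 fold change of 0.89 ± 0.18 (adjusted p = 0.00647). FOXO1, a forkhead factor on chromosome 13 that class IIa enzymes deacetylate together with HDAC3, stood at 39.3, 15.9 and 16.3 CPM with KDAC4 H803A and 6.05, 5.74, 8.66 and 4.94 CPM with KDAC4 H976Y. FOXO1 had a log2 fold change of 1.90 ± 0.32 (adjusted p = 0.00245). FOXO1 was called under all 30 alternatives, but the calls of MEF2D (adjusted p = 0.205) and SRF (adjusted p = 0.275) ended with GC and length offsets. Of the corepressor, TBL1X, a subunit of the NCoR complex, stood at 112, 87.9 and 89.3 CPM with KDAC4 H803A and 54.5, 59.6, 56.4 and 49.4 CPM with KDAC4 H976Y. In TBL1X the log2 fold change was 0.81 ± 0.17 (adjusted p = 0.00897), a call that ended without a filter on low counts (adjusted p = 0.0549). NCOR1 (0.00 ± 0.15) and HDAC3 (-0.07 ± 0.17) were not called. None of the salt-inducible kinases and protein kinase D genes of the list (SIK1, SIK2, SIK3, PRKD1, PRKD2 and PRKD3) was called.

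The gene lists below were taken from general knowledge of each family, with earlier results of these data known. Each is described by the number of tested members called and by its median, beside 9.21% higher, 5.85% lower and a median of 0.09 over all genes tested. Without the library labelled replicate 1 the shares were 22.4% and 22.9%, so each list's count without it is read against those. At an unadjusted p under 0.05, 5985 of the 17780 genes differed in either direction. DESeq2 called 2572 of the 17780 higher and 1805 lower, and the fit with GC and length offsets 1937 and 1817. A list's counts under those settings are read against these. For genes given by name alone, the alternatives are covered by the counts of their list.

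**Figure D3:**
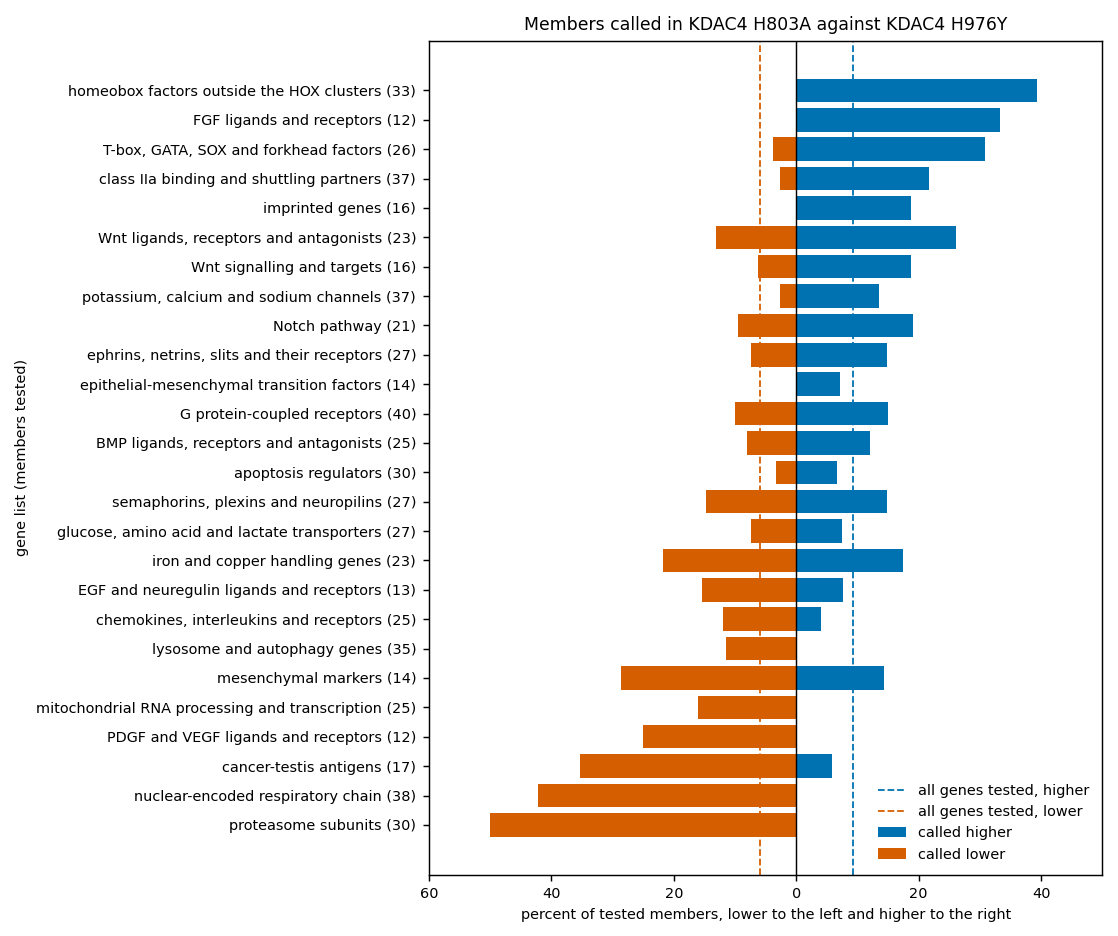
Percent of the tested members of each gene list (y axis, number tested in brackets) called higher (bars to the right) and called lower (bars to the left) with KDAC4 H803A; dashed lines are the shares over all 17780 genes, 9.21% and 5.85%. Homeobox factors have no bar to the left, and proteasome subunits and the nuclear-encoded respiratory chain none to the right.

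Developmental transcription factors were called mostly higher. Homeobox genes outside the HOX clusters, which pattern the embryo, had 13 of 33 tested members called higher and 0 lower in edgeR's test, with a median of 0.71. At an unadjusted p under 0.05, 15 were higher and 3 lower, and DESeq2 called 14 and 1. Without the library labelled replicate 1 the counts were 17 and 5, and with GC and length offsets 12 and 0. SIX2 (ENSG00000170577, chromosome 2, 45005161 to 45009430), a factor of kidney and craniofacial progenitors, stood at 15.8, 15.8 and 18.9 CPM with KDAC4 H803A and 5.63, 6.06, 6.39 and 4.74 CPM with KDAC4 H976Y. SIX2 differed by a log2 fold change of 1.55 ± 0.20 (adjusted p = 0.000513), and its values lay in narrow ranges in both groups. Its call ended with GC and length offsets without the library labelled replicate 1 (adjusted p = 0.059). LMX1B, a limb and neural factor on chromosome 9, stood at 3.17, 9.79 and 8.33 CPM with KDAC4 H803A and 1.55, 1.17, 0.541 and 0.824 CPM with KDAC4 H976Y. In LMX1B the log2 fold change was 2.78 ± 0.51 (adjusted p = 0.00402). POU2F2, known from B cells, stood at 4.62, 34.8 and 50.1 CPM with KDAC4 H803A and 3.24, 2.98, 3.898 and 4.12 CPM with KDAC4 H976Y. POU2F2 differed by a log2 fold change of 3.07 ± 0.63 (adjusted p = 0.00727). In LMX1B and POU2F2 the library labelled replicate 1 lay far below the other 2 and just above KDAC4 H976Y. Other homeobox genes called included GBX2, IRX3, LHX6, NKX3-2, OTX1, PAX6, PAX9, PITX1 and SHOX2, with log2 fold changes from 0.89 to 4.14.

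Of 26 tested T-box, GATA, SOX and forkhead factors 8 were called higher and 1, SOX7, lower (median 0.37; 9 and 4 without the library labelled replicate 1). The higher ones were TBX2, GATA3, SOX4, SOX9, SOX12, FOXD1, FOXF2 and FOXO1. FOXD1, a factor of renal stroma, stood at 44.97, 107 and 98.03 CPM with KDAC4 H803A and 42.5, 43.9, 41.03 and 31.9 CPM with KDAC4 H976Y. FOXD1 had a log2 fold change of 1.06 ± 0.27 (adjusted p = 0.0202). The library labelled replicate 1 was just above the KDAC4 H976Y values. The call of FOXD1 ended without KDAC4 H803A replicates 2 or 3, KDAC4 H976Y replicate 3 (adjusted p = 0.0523 to 0.0993) and with GC and length offsets (adjusted p = 0.42). Of 14 tested factors of epithelial-mesenchymal transition 1 was called higher, TWIST2, and 0 lower in edgeR's test, 2 and 0 at an unadjusted p under 0.05 and 2 and 0 with DESeq2. The counts without the library labelled replicate 1 were 3 and 3, and the median moved from 0.18 to -0.18. TWIST2 stood at 12.9, 24.9 and 27.4 CPM with KDAC4 H803A and 7.04, 9.25, 7.47 and 6.39 CPM with KDAC4 H976Y. In TWIST2 the log2 fold change was 1.52 ± 0.46 (adjusted p = 0.0419). The call of TWIST2 ended without KDAC4 H803A replicates 2 or 3, KDAC4 H976Y replicates 1, 2, 3 or 4, TMP195 replicates 1, 2 or 3 (adjusted p = 0.0602 to 0.155).

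Wnt ligands and receptors were called in both directions. Of 23 tested ligands, receptors and antagonists 6 were called higher and 3 lower (median 0.23). Without the library labelled replicate 1 the counts were 6 and 6, and the median changed sign to -0.23. Among ligands, WNT3 stood at 12.2, 9.88 and 11.8 CPM with KDAC4 H803A and 5.49, 5.53, 5.197 and 4.33 CPM with KDAC4 H976Y. WNT3 differed by a log2 fold change of 1.13 ± 0.22 (adjusted p = 0.00488). WNT7B stood at 5.45, 12.9 and 11.4 CPM with KDAC4 H803A and 36.3, 36.2, 32.5 and 34.4 CPM with KDAC4 H976Y. WNT7B had a log2 fold change of -1.82 ± 0.31 (adjusted p = 0.00245). Among the Frizzled receptors, FZD3 stood at 10.3, 5.91 and 5.48 CPM with KDAC4 H803A and 0.422, 0.745, 0.217 and 0.412 CPM with KDAC4 H976Y. In FZD3 the log2 fold change was 3.97 ± 0.63 (adjusted p = 0.00165). FZD4 stood at 18.2, 20.8 and 20.4 CPM with KDAC4 H803A and 10.3, 8.51, 10.1 and 8.24 CPM with KDAC4 H976Y. FZD4 differed by a log2 fold change of 1.09 ± 0.23 (adjusted p = 0.00742). These 4 were called under all 30 alternatives, and in none did a KDAC4 H803A library reach the other group. FZD2, FZD5 and KREMEN1 were also called higher, and WNT5B and the receptor kinase ROR1 lower. Of 16 tested genes of Wnt signalling 3 were called higher and 1 lower (5 and 4 without the library labelled replicate 1). With all libraries the 3 higher ones were nuclear factors that carry beta-catenin to DNA. TCF7L2 stood at 40.5, 37.7 and 38.6 CPM with KDAC4 H803A and 22.8, 23.1, 20.8 and 29.04 CPM with KDAC4 H976Y. TCF7L2 had a log2 fold change of 0.70 ± 0.16 (adjusted p = 0.0113). LEF1 stood at 29.01, 20.8 and 19.4 CPM with KDAC4 H803A and 11.8, 11.3, 15.9 and 8.44 CPM with KDAC4 H976Y. In LEF1 the log2 fold change was 0.96 ± 0.26 (adjusted p = 0.0258). TCF7L1 stood at 3.8003, 3.59 and 2.74 CPM with KDAC4 H803A and 0.141, 0, 0.217 and 0.206 CPM with KDAC4 H976Y. TCF7L1 differed by a log2 fold change of 4.57 ± 1.22 (adjusted p = 0.025). The call of TCF7L2 ended without KDAC4 H976Y replicate 3 (adjusted p = 0.0508). It also ended on the 7 libraries of the comparison alone (adjusted p = 0.0611) and without a filter on low counts (adjusted p = 0.0686). The call of LEF1 ended without KDAC4 H803A replicates 2 or 3, KDAC4 H976Y replicates 1, 2 or 4 (adjusted p = 0.0509 to 0.083). The call of TCF7L1 ended without KDAC4 H803A replicates 2 or 3, KDAC4 H976Y replicates 1, 2 or 3 (adjusted p = 0.0529 to 0.0771). The lower one was TNIK, a kinase that binds these factors, at 36.4, 38.4 and 41.8 CPM with KDAC4 H803A and 64.2, 66.5, 65.9 and 59.9 CPM with KDAC4 H976Y. TNIK had a log2 fold change of -0.72 ± 0.14 (adjusted p = 0.00438), and its call ended without a filter on low counts (adjusted p = 0.0547).

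Notch ligands changed in opposite directions. DLL1 (ENSG00000198719, chromosome 6, 170282206 to 170306565) stood at 4.62, 4.94 and 4.39 CPM with KDAC4 H803A and 0.563, 0.106, 0.325 and 0.206 CPM with KDAC4 H976Y. In DLL1 the log2 fold change was 3.92 ± 0.52 (adjusted p = 0.000619). The ligand JAG1 stood at 104, 115 and 94.5 CPM with KDAC4 H803A and 256, 277, 276 and 200.2 CPM with KDAC4 H976Y. JAG1 differed by a log2 fold change of -1.27 ± 0.18 (adjusted p = 0.000823). Both were called under all 30 alternatives, and each KDAC4 H803A library lay on the same side. The receptor NOTCH2 (ENSG00000134250, chromosome 1, 119911553 to 120069626) stood at 751, 378 and 282 CPM with KDAC4 H803A and 1343, 1381, 1476 and 965 CPM with KDAC4 H976Y. NOTCH2 had a log2 fold change of -1.46 ± 0.37 (adjusted p = 0.0204). The call of NOTCH2 ended without KDAC4 H803A replicates 2 or 3, KDAC4 H976Y replicates 1, 2 or 3 (adjusted p = 0.056 to 0.107). MAML3, a coactivator of the cleaved receptor, stood at 59.7, 106 and 98.6 CPM with KDAC4 H803A and 38.4, 37.4, 37.2 and 51.5 CPM with KDAC4 H976Y. In MAML3 the log2 fold change was 1.10 ± 0.22 (adjusted p = 0.00553). Of 21 tested members of the pathway 4 were called higher and 2 lower (median 0.75), and 10 and 4 without the library labelled replicate 1. The list's median in single libraries, relative to the mean of the 7, was 0.94 and 0.76 in replicates 2 and 3 but -0.24 in the library labelled replicate 1, within the -0.30 to -0.07 of KDAC4 H976Y.

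Among growth factors, FGF genes were called only higher, 4 of 12 tested and 0 lower in edgeR's test. At an unadjusted p under 0.05 there were 6 and 0, with DESeq2 5 and 0, and 5 and 2 without the library labelled replicate 1. The receptor FGFR1 stood at 70.2, 111 and 113 CPM with KDAC4 H803A and 43.9, 49.8, 50.7 and 46.96 CPM with KDAC4 H976Y. FGFR1 differed by a log2 fold change of 1.03 ± 0.19 (adjusted p = 0.0035). The ligand FGF1 stood at 13.6, 4.55 and 5.702 CPM with KDAC4 H803A and 1.27, 1.28, 2.17 and 1.65 CPM with KDAC4 H976Y. FGF1 had a log2 fold change of 2.32 ± 0.46 (adjusted p = 0.00576). Neither overlapped between groups in any library. The receptor FGFR4 stood at 0.507, 6.98 and 5.37 CPM with KDAC4 H803A and had 1 count in all of KDAC4 H976Y, a ratio of 112 (95% counting interval 19.8 to 4459; adjusted p = 0.00256). FGFBP3, which binds FGFs, stood at 1.08, 7.75 and 6.798 CPM with KDAC4 H803A and 0.845, 1.28, 0.974 and 1.03 CPM with KDAC4 H976Y. In FGFBP3 the log2 fold change was 2.31 ± 0.57 (adjusted p = 0.0174), and the library labelled replicate 1 lay within the other group. The call of FGFBP3 ended without KDAC4 H803A replicates 2 or 3, KDAC4 H976Y replicates 1 or 3 (adjusted p = 0.0543 to 0.0826). Of 13 tested EGF and neuregulin genes 1 was called higher and 2 lower (1 and 3 without the library labelled replicate 1). Their median was 0.23, and -0.02 without that library. The neuregulin NRG2 stood at 6.97, 10.2 and 8.44 CPM with KDAC4 H803A and 2.67, 1.81, 2.17 and 3.09 CPM with KDAC4 H976Y. NRG2 differed by a log2 fold change of 1.82 ± 0.35 (adjusted p = 0.00534). TGFA, a ligand of the EGF receptor, stood at 12.7, 16.2 and 12.8 CPM with KDAC4 H803A and 48.99, 46.2, 45.3 and 32.7 CPM with KDAC4 H976Y. TGFA had a log2 fold change of -1.64 ± 0.46 (adjusted p = 0.0311). LRIG3, a modulator of such receptors, stood at 24.4, 29.7 and 28.9 CPM with KDAC4 H803A and 58.4, 52.9, 53.6 and 47.99 CPM with KDAC4 H976Y. In LRIG3 the log2 fold change was -0.94 ± 0.27 (adjusted p = 0.0334). The call of TGFA ended without KDAC4 H803A replicates 2 or 3, KDAC4 H976Y replicates 1, 2 or 3 (adjusted p = 0.0725 to 0.116). That of LRIG3 ended without KDAC4 H803A replicates 2 or 3, KDAC4 H976Y replicates 1, 2 or 3, TMP195 replicates 1, 2 or 3 (adjusted p = 0.0504 to 0.101).

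Of 12 tested PDGF and VEGF ligands and receptors 0 were called higher and 3 lower in edgeR's test (median -0.49). At an unadjusted p under 0.05 there were 1 and 5, with DESeq2 0 and 3, and 1 and 5 without the library labelled replicate 1. All 3 were receptors. PDGFRB, the PDGF receptor of mesenchymal cells, stood at 2.09, 3.97 and 3.84 CPM with KDAC4 H803A and 9.29, 9.47, 10.4 and 7.21 CPM with KDAC4 H976Y. PDGFRB differed by a log2 fold change of -1.47 ± 0.36 (adjusted p = 0.0179) and was called under all 30 alternatives. NRP2 stood at 108, 91.6 and 62.2 CPM with KDAC4 H803A and 280.3, 281, 279.5 and 212 CPM with KDAC4 H976Y. NRP2 had a log2 fold change of -1.59 ± 0.39 (adjusted p = 0.018). The call of NRP2 ended without KDAC4 H803A replicates 2 or 3, KDAC4 H976Y replicate 2 (adjusted p = 0.0503 to 0.0946). NRP1 is given above. Of 25 tested BMP genes 3 were called higher and 2 lower (6 and 8 without the library labelled replicate 1). The type II receptor ACVR2B stood at 38.4, 62.01 and 46.7 CPM with KDAC4 H803A and 19.8, 19.5, 20.6 and 21.8 CPM with KDAC4 H976Y. In ACVR2B the log2 fold change was 1.26 ± 0.18 (adjusted p = 0.000897). ID3, an inhibitor of helix-loop-helix factors and a BMP target, stood at 8.04, 16.5 and 10.9 CPM with KDAC4 H803A and 38.4, 42.01, 34.8 and 29.04 CPM with KDAC4 H976Y. ID3 differed by a log2 fold change of -1.62 ± 0.34 (adjusted p = 0.00829). The receptor and the target thus lay on opposite sides in every library. BMP2 stood at 2.98, 5.72 and 3.07 CPM with KDAC4 H803A and 12.2, 13.2, 10.1 and 9.06 CPM with KDAC4 H976Y. BMP2 had a log2 fold change of -1.51 ± 0.34 (adjusted p = 0.012). The call of BMP2 ended without KDAC4 H803A replicate 3 (adjusted p = 0.0624). BMP4 stood at 2.28, 0.872 and 0.329 CPM against 2 counts in all of KDAC4 H976Y, a ratio of 20.8 (95% counting interval 5.46 to 177; adjusted p = 0.0193). The call of BMP4 ended without KDAC4 H976Y replicates 2 or 3 (adjusted p = 0.0666 to 0.0668).

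Receptors of guidance cues were called in both directions. PLXNA2 (ENSG00000076356, chromosome 1, 208022242 to 208244320), a semaphorin receptor, stood at 188, 183 and 172 CPM with KDAC4 H803A and 43.8, 54.5, 50.99 and 46.5 CPM with KDAC4 H976Y. In PLXNA2 the log2 fold change was 1.89 ± 0.21 (adjusted p = 0.000151), with the 3 libraries of KDAC4 H803A close together. PLXND1 (ENSG00000004399, chromosome 3, 129555175 to 129606818), the receptor of SEMA3E, stood at 21.5, 114 and 106 CPM with KDAC4 H803A and 5.49, 8.19, 7.36 and 7.83 CPM with KDAC4 H976Y. PLXND1 differed by a log2 fold change of 3.48 ± 0.47 (adjusted p = 0.000715). SEMA4D on chromosome 9 stood at 37.3, 59.7 and 55.8 CPM with KDAC4 H803A and 17.3, 19.5, 20.5 and 21.4 CPM with KDAC4 H976Y. SEMA4D had a log2 fold change of 1.37 ± 0.19 (adjusted p = 0.000824). In both genes the library labelled replicate 1 was the lowest of its group and above all of KDAC4 H976Y. SEMA3C, a secreted ligand, stood at 35.7, 5.91 and 8.33 CPM with KDAC4 H803A and 85.7, 82.2, 88.5 and 56.8 CPM with KDAC4 H976Y. In SEMA3C the log2 fold change was -2.22 ± 0.52 (adjusted p = 0.0143). The call of SEMA3C ended without KDAC4 H803A replicate 3 (adjusted p = 0.0752). Semaphorins, plexins and neuropilins had 4 higher and 4 lower of 27 tested (11 and 6 without the library labelled replicate 1). Ephrins, netrins, slits and their receptors had 4 higher and 2 lower of 27 (9 and 6 without it). Of the ephrin receptors, EPHB1 stood at 19.95, 18.7 and 18.8 CPM with KDAC4 H803A and 5.91, 7.13, 7.47 and 4.94 CPM with KDAC4 H976Y. EPHB1 differed by a log2 fold change of 1.58 ± 0.20 (adjusted p = 0.000422). EPHB2 stood at 72.8, 71.8 and 57.7 CPM with KDAC4 H803A and 249.6, 256, 259 and 176 CPM with KDAC4 H976Y. EPHB2 had a log2 fold change of -1.80 ± 0.33 (adjusted p = 0.00391). EPHB6, which lacks kinase activity, stood at 1.08, 9.21 and 9.21 CPM with KDAC4 H803A and 0.704, 0.213, 0 and 0.618 CPM with KDAC4 H976Y. In EPHB6 the log2 fold change was 4.16 ± 0.85 (adjusted p = 0.0068), with most of its counts in replicates 2 and 3. ROBO4, the endothelial slit receptor, stood at 75.2, 69.9 and 65.1 CPM with KDAC4 H803A and 26.9, 29.04, 21.4 and 22.9 CPM with KDAC4 H976Y. ROBO4 differed by a log2 fold change of 1.48 ± 0.26 (adjusted p = 0.00328). EPHB1, EPHB2 and ROBO4 were called under all 30 alternatives, EPHB1 and EPHB2 in opposite directions.

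G protein-coupled receptors and exchange factors for Rac were also among the called genes. TIAM1 (ENSG00000156299, chromosome 21, 31118416 to 31559977), an exchange factor for Rac, stood at 30.5, 28.003 and 31.03 CPM with KDAC4 H803A and 7.602, 8.403, 8.55 and 8.24 CPM with KDAC4 H976Y. TIAM1 had a log2 fold change of 1.86 ± 0.21 (adjusted p = 0.000192). DOCK4, another exchange factor for Rac, stood at 333, 259.9 and 303 CPM with KDAC4 H803A and 164, 168, 184 and 166 CPM with KDAC4 H976Y. DOCK4 differed by a log2 fold change of 0.81 ± 0.16 (adjusted p = 0.00624). Both were called under all 30 alternatives. Of 40 tested G protein-coupled receptors 6 were called higher and 4 lower (10 and 8 without the library labelled replicate 1). S1PR1 (ENSG00000170989, chromosome 1, 101236865 to 101243713), a receptor of sphingosine 1-phosphate, stood at 32.2, 18.6 and 13.4 CPM with KDAC4 H803A and 1.27, 0.957, 1.41 and 1.03 CPM with KDAC4 H976Y. S1PR1 had a log2 fold change of 4.18 ± 0.71 (adjusted p = 0.00245). The adhesion receptor ADGRG1 stood at 27.2, 50.5 and 35.9 CPM with KDAC4 H803A and 14.1, 14.8, 14.2 and 13.4 CPM with KDAC4 H976Y. In ADGRG1 the log2 fold change was 1.42 ± 0.21 (adjusted p = 0.00119). ADGRA2, an adhesion receptor of the brain vasculature, stood at 8.17, 43.7 and 41.1 CPM with KDAC4 H803A and 3.24, 2.13, 2.598 and 3.91 CPM with KDAC4 H976Y. ADGRA2 differed by a log2 fold change of 3.40 ± 0.50 (adjusted p = 0.00119), with the library labelled replicate 1 lowest of its group. ADGRE5, the leukocyte antigen CD97, stood at 14.1, 18.4 and 20.5 CPM with KDAC4 H803A and 32.5, 31.4, 29.3 and 25.7 CPM with KDAC4 H976Y. ADGRE5 had a log2 fold change of -0.75 ± 0.18 (adjusted p = 0.0176). The call of ADGRE5 ended without KDAC4 H803A replicate 2, KDAC4 H976Y replicates 1 or 2 (adjusted p = 0.0501 to 0.0523).

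Proteasome subunits were called in 1 direction only. Of 30 tested, 0 were called higher and 15 lower in edgeR's test, with a median log2 fold change of -1.06 and all 30 estimates below 0. At an unadjusted p under 0.05, 0 were higher and 21 lower, and DESeq2 called 0 and 21. The lower count was 27 without the library labelled replicate 1, 19 with GC and length offsets and 8 on the 7 libraries alone, and 4 to 29 over all alternatives, none of which called a subunit higher. PSMA7 (ENSG00000101182, chromosome 20, 62136735 to 62143440), of the core particle, stood at 61.4, 67.8 and 49.7 CPM with KDAC4 H803A and 179.6, 178, 188 and 120.1 CPM with KDAC4 H976Y. In PSMA7 the log2 fold change was -1.48 ± 0.22 (adjusted p = 0.0012). PSMB6, a catalytic subunit, stood at 29.5, 22.3 and 14.1 CPM with KDAC4 H803A and 77.4, 82.5, 92.7 and 44.1 CPM with KDAC4 H976Y. PSMB6 differed by a log2 fold change of -1.75 ± 0.34 (adjusted p = 0.00545). PSMC3, an ATPase of the regulatory particle, stood at 62.3, 65.02 and 49.6 CPM with KDAC4 H803A and 123, 150.2, 143 and 80.9 CPM with KDAC4 H976Y. PSMC3 had a log2 fold change of -1.08 ± 0.21 (adjusted p = 0.00534). PSMC4, another of these ATPases, stood at 83.9, 71.5 and 79.2 CPM with KDAC4 H803A and 183, 189.7, 198 and 111 CPM with KDAC4 H976Y. In PSMC4 the log2 fold change was -1.12 ± 0.21 (adjusted p = 0.00457). In each of these genes KDAC4 H976Y replicate 4 was the lowest of its group. The median of the list per library, as log2 CPM relative to the mean of the 7, was 0.54 to 0.72 in KDAC4 H976Y replicates 1 to 3 but -0.12 in replicate 4. It was 0.01, -0.73 and -1.14 in KDAC4 H803A. On this measure the library labelled replicate 1 lay above KDAC4 H976Y replicate 4, and the groups overlapped. Of the 30 genes, 11 did not overlap, all with KDAC4 H803A below, beside 11% of all genes tested.

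The nuclear-encoded respiratory chain was also called in 1 direction only. Of 38 tested members 0 were called higher and 16 lower in edgeR's test (median -1.04). There were 0 and 27 at an unadjusted p under 0.05, and with DESeq2 0 and 24. The lower count was 31 without the library labelled replicate 1, 18 with GC and length offsets and 3 to 36 over all alternatives. The list's median per library, relative to the mean of the 7, was -0.05 in the library labelled KDAC4 H803A replicate 1 and -0.12 in KDAC4 H976Y replicate 4, so the groups overlapped on this measure. Of the 38 genes, 13 did not overlap, all with KDAC4 H803A below, beside 11% of all genes tested. NDUFA2, a subunit of complex I, stood at 9.37, 9.399 and 9.21 CPM with KDAC4 H803A and 28.999, 34.04, 30.6 and 19.6 CPM with KDAC4 H976Y. NDUFA2 differed by a log2 fold change of -1.60 ± 0.24 (adjusted p = 0.00132). NDUFA1, of the same complex, stood at 8.17, 16.7 and 12.5 CPM with KDAC4 H803A and 46.5, 46.3, 51.8 and 30.1 CPM with KDAC4 H976Y. NDUFA1 had a log2 fold change of -1.81 ± 0.28 (adjusted p = 0.00158). Both were called under all 30 alternatives. UQCRH of complex III stood at 67.5, 48.1 and 41.2 CPM with KDAC4 H803A and 192, 196, 199 and 114 CPM with KDAC4 H976Y. In UQCRH the log2 fold change was -1.75 ± 0.34 (adjusted p = 0.00544). Mitochondrially encoded mRNA, which codes for partner subunits of the same complexes, took the larger share in KDAC4 H803A (6.45% to 14.7% against 0.676% to 1.41% of counts). Of 25 tested genes of mitochondrial RNA processing and transcription 0 were called higher and 4 lower in edgeR's test (median -0.62). At an unadjusted p under 0.05 there were 1 and 11, with DESeq2 1 and 7, and 2 and 17 without the library labelled replicate 1. PNPT1, the polynucleotide phosphorylase that degrades mitochondrial RNA, stood at 64.1, 36.6 and 40.5 CPM with KDAC4 H803A and 103, 98.5, 99.5 and 107 CPM with KDAC4 H976Y. PNPT1 had a log2 fold change of -1.12 ± 0.21 (adjusted p = 0.00469) and was called under all 30 alternatives. HSD17B10, a subunit of mitochondrial RNase P, stood at 20.4, 22.4 and 15.9 CPM with KDAC4 H803A and 35.5, 36.2, 44.3 and 28.01 CPM with KDAC4 H976Y. In HSD17B10 the log2 fold change was -0.88 ± 0.22 (adjusted p = 0.0184). The call of HSD17B10 ended without KDAC4 H803A replicate 3, KDAC4 H976Y replicates 2 or 3 (adjusted p = 0.0511 to 0.1).

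**Figure D4:**
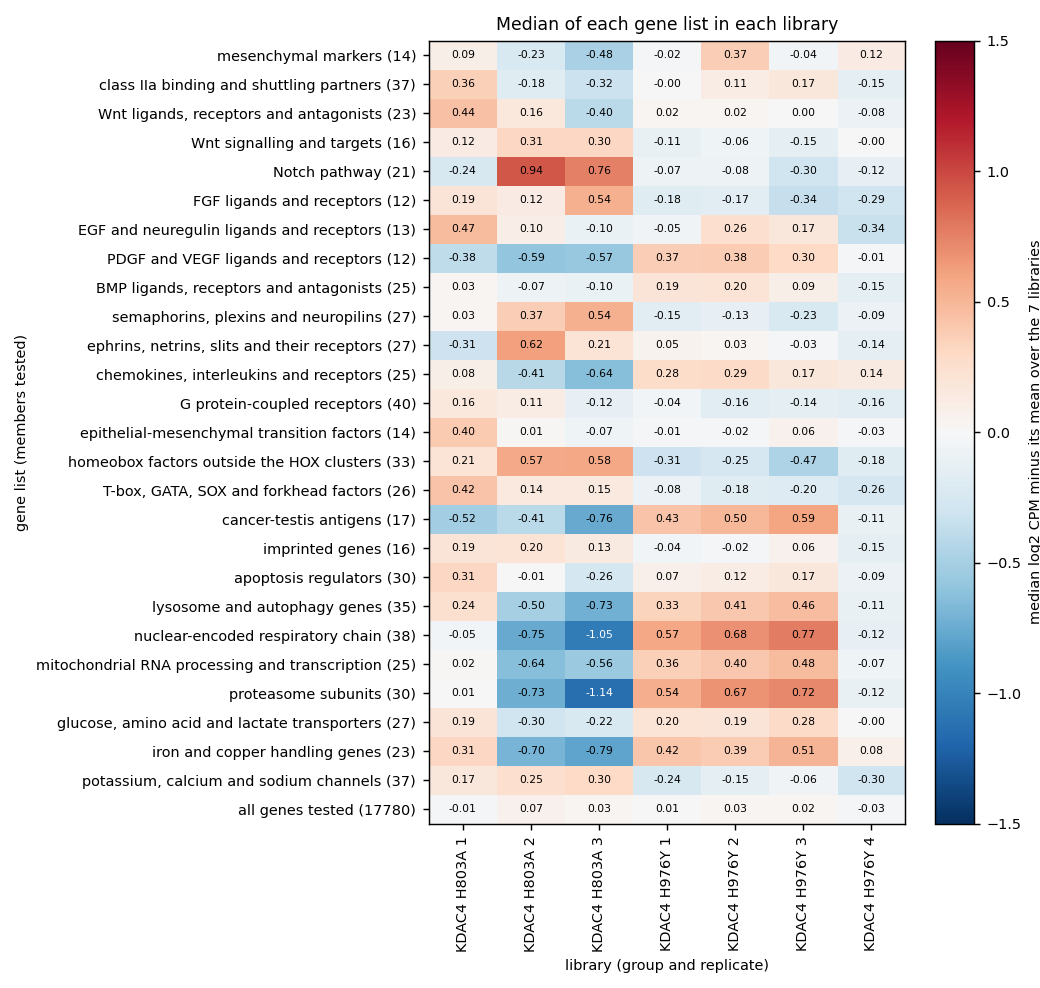
Median over the tested members of each list (rows, number tested in brackets) of log2 CPM minus the gene's mean over the 7 libraries, in each library (columns); colour and printed number give the median. Proteasome and respiratory chain rows run from 0.54 to 0.77 in KDAC4 H976Y replicates 1 to 3, stand at -0.12 in replicate 4, and at -1.14 and -1.05 in KDAC4 H803A replicate 3; the last row gives all genes tested.

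Lysosome and autophagy genes had 0 higher and 4 lower of 35 tested in edgeR's test (median -0.51). There were 3 and 14 at an unadjusted p under 0.05, with DESeq2 3 and 11, and 2 and 21 without the library labelled replicate 1. The protease CTSD stood at 128, 117 and 84.9 CPM with KDAC4 H803A and 224, 242, 220.2 and 178 CPM with KDAC4 H976Y. CTSD differed by a log2 fold change of -0.97 ± 0.19 (adjusted p = 0.00537), and its call ended with GC and length offsets (adjusted p = 0.113). PSAP, the precursor of the saposins, stood at 494, 395 and 254 CPM with KDAC4 H803A and 773, 826, 861 and 518 CPM with KDAC4 H976Y. PSAP had a log2 fold change of -0.97 ± 0.28 (adjusted p = 0.0333). The call of PSAP ended without KDAC4 H803A replicates 2 or 3, KDAC4 H976Y replicates 1, 2 or 3, TMP195 replicates 1, 2 or 3 (adjusted p = 0.0515 to 0.165). Of 23 tested genes of iron and copper handling 4 were called higher and 5 lower (median -0.66; 3 and 13 without that library). The copper transporter ATP7B, on chromosome 13, stood at 4.18, 8.04 and 7.24 CPM with KDAC4 H803A and 2.53, 2.34, 2.17 and 1.85 CPM with KDAC4 H976Y. In ATP7B the log2 fold change was 1.53 ± 0.30 (adjusted p = 0.00579). The iron reductase STEAP3 stood at 179.7, 237 and 205 CPM with KDAC4 H803A and 392, 424, 418 and 310.2 CPM with KDAC4 H976Y. STEAP3 differed by a log2 fold change of -0.90 ± 0.18 (adjusted p = 0.00601). Both were called under all 30 alternatives. Higher members were otherwise metallothioneins, MT1E, MT1X and MT2A, which share sequence, and lower members the ferritin chains FTH1 and FTL, the reductase STEAP4 and HEPH. MT1E stood at 151, 68.2 and 58.4 CPM with KDAC4 H803A and 27.9, 36.3, 35.2 and 26.6 CPM with KDAC4 H976Y. MT1E had a log2 fold change of 1.56 ± 0.36 (adjusted p = 0.0143). The call of MT1E ended without KDAC4 H976Y replicate 1 (adjusted p = 0.0526) and with GC and length offsets (adjusted p = 0.0819). Of 27 tested transporters of glucose, amino acids and lactate 2 were called higher and 2 lower (2 and 10 without the library labelled replicate 1). SLC7A1, the arginine transporter on chromosome 13, stood at 350.3, 257 and 201 CPM with KDAC4 H803A and 115, 113, 117 and 96.4 CPM with KDAC4 H976Y. In SLC7A1 the log2 fold change was 1.29 ± 0.23 (adjusted p = 0.00321), and its call ended with those offsets once the library labelled replicate 1 was left out (adjusted p = 0.124). SLC2A1, the glucose transporter GLUT1, stood at 166, 126 and 95.6 CPM with KDAC4 H803A and 248, 262, 259 and 165 CPM with KDAC4 H976Y. SLC2A1 differed by a log2 fold change of -0.86 ± 0.24 (adjusted p = 0.0319), and the groups overlapped. The call of SLC2A1 ended without KDAC4 H803A replicates 2 or 3, KDAC4 H976Y replicates 1, 2 or 3, TMP195 replicates 1 or 2 (adjusted p = 0.0518 to 0.165).

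Cytokines, survival genes and channels had calls in both directions. Of 25 tested chemokines, interleukins and receptors 1 was called higher and 3 lower (2 and 9 without the library labelled replicate 1). The receptor IL7R stood at 43.3, 21.7 and 23.8 CPM with KDAC4 H803A and 6.05, 4.57, 6.17 and 2.88 CPM with KDAC4 H976Y. IL7R had a log2 fold change of 2.57 ± 0.40 (adjusted p = 0.00141). IL1A stood at 3.36, 0.581 and 1.54 CPM with KDAC4 H803A and 17.2, 19.04, 18.5 and 10.5 CPM with KDAC4 H976Y. In IL1A the log2 fold change was -3.13 ± 0.53 (adjusted p = 0.00256). IL11 stood at 4.43, 9.69 and 7.57 CPM with KDAC4 H803A and 12.2, 15.96, 14.3 and 11.3 CPM with KDAC4 H976Y. IL11 differed by a log2 fold change of -0.90 ± 0.28 (adjusted p = 0.0479). The call of IL11 ended without KDAC4 H803A replicates 1 or 3, KDAC4 H976Y replicates 1, 2 or 3, KDAC7 H709A replicates 2, 3 or 4, TMP195 replicates 1, 2 or 3 (adjusted p = 0.0544 to 0.115). Of 30 tested regulators of apoptosis 2 were called higher and 1 lower (3 and 8 without the library labelled replicate 1). BCL2 (ENSG00000171791, chromosome 18, 63123346 to 63320128), which protects cells from mitochondrial apoptosis, stood at 52.3, 48.7 and 50.4 CPM with KDAC4 H803A and 20.1, 22.3, 20.5 and 17.1 CPM with KDAC4 H976Y. BCL2 had a log2 fold change of 1.33 ± 0.16 (adjusted p = 0.000385), with narrow ranges in both groups and a call under all 30 alternatives. BOK, a relative that promotes it, stood at 22.04, 37.2 and 32.8 CPM with KDAC4 H803A and 9.01, 11.1, 9.203 and 11.9 CPM with KDAC4 H976Y. In BOK the log2 fold change was 1.57 ± 0.47 (adjusted p = 0.0387). The caspase inhibitor XIAP stood at 53.3, 28.6 and 23.9 CPM with KDAC4 H803A and 73.8, 64.03, 68.5 and 66.9 CPM with KDAC4 H976Y. XIAP differed by a log2 fold change of -0.95 ± 0.28 (adjusted p = 0.0392). The call of BOK ended without KDAC4 H803A replicates 2 or 3, KDAC4 H976Y replicates 1, 2, 3 or 4, TMP195 replicates 1, 2 or 3 (adjusted p = 0.0528 to 0.124). That of XIAP ended without KDAC4 H803A replicates 2 or 3, KDAC4 H976Y replicates 1, 2, 3 or 4, KDAC7 H709A replicate 2, TMP195 replicates 1, 2 or 3 (adjusted p = 0.051 to 0.193). Of 37 tested potassium, calcium and sodium channels 5 were called higher and 1, TRPV2, lower (11 and 4 without the library labelled replicate 1). SCN8A (ENSG00000196876, chromosome 12, 51590266 to 51812864), a neuronal sodium channel, stood at 49.7, 33.4 and 44.6 CPM with KDAC4 H803A and 8.45, 9.36, 8.01 and 11.3 CPM with KDAC4 H976Y. SCN8A had a log2 fold change of 2.20 ± 0.29 (adjusted p = 0.000645). KCNQ3, a potassium channel, stood at 3.42, 2.71 and 2.63 CPM against 0 counts in KDAC4 H976Y, at least 30.7-fold higher (adjusted p = 0.000524). Both channels were separate between groups in every library and called under all 30 alternatives.

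Cancer-testis antigens, germline genes that many tumours express, had 1 called higher and 6 lower of 17 tested (median -0.82; 0 and 10 without the library labelled replicate 1). PAGE5 stood at 33.9, 32.1 and 25.9 CPM with KDAC4 H803A and 81.4, 80.8, 75.9 and 46.96 CPM with KDAC4 H976Y. PAGE5 differed by a log2 fold change of -1.22 ± 0.25 (adjusted p = 0.00638). MAGEB2 stood at 65.4, 43.02 and 29.2 CPM with KDAC4 H803A and 117, 123, 128 and 74.2 CPM with KDAC4 H976Y. MAGEB2 had a log2 fold change of -1.27 ± 0.32 (adjusted p = 0.0194). MAGEA12, which shares reads with near-identical copies, stood at 40.5, 30.6 and 19.3 CPM with KDAC4 H803A and 67.01, 67.8, 76.8 and 42.2 CPM with KDAC4 H976Y. In MAGEA12 the log2 fold change was -1.07 ± 0.27 (adjusted p = 0.0196). MAGEA2, with the same limit, stood at 17.1, 22.5 and 21.9 CPM with KDAC4 H803A and 49.6, 37.3, 61.7 and 40.4 CPM with KDAC4 H976Y. MAGEA2 differed by a log2 fold change of -1.21 ± 0.31 (adjusted p = 0.0212). The call of MAGEB2 ended without KDAC4 H803A replicates 2 or 3, KDAC4 H976Y replicates 1, 2 or 3 (adjusted p = 0.056 to 0.103). The call of MAGEA12 ended without KDAC4 H803A replicates 2 or 3, KDAC4 H976Y replicates 1, 2 or 3 (adjusted p = 0.0579 to 0.101). The call of MAGEA2 ended without KDAC4 H803A replicates 2 or 3, KDAC4 H976Y replicates 1 or 3 (adjusted p = 0.0526 to 0.0668). Imprinted genes had 3 higher and 0 lower of 16 tested in edgeR's test, 3 and 0 at an unadjusted p under 0.05, 3 and 0 with DESeq2, and 3 and 3 without the library labelled replicate 1. PLAGL1, a zinc-finger factor, stood at 42.3, 30.8 and 34.6 CPM with KDAC4 H803A and 14.5, 17.02, 16.2 and 22.9 CPM with KDAC4 H976Y. PLAGL1 had a log2 fold change of 1.03 ± 0.21 (adjusted p = 0.00724) and was called under all 30 alternatives. PHLDA2, a growth-restraining gene of the placenta, stood at 40.9, 36.9 and 38.7 CPM with KDAC4 H803A and 18.2, 20.4, 17.6 and 12.8 CPM with KDAC4 H976Y. In PHLDA2 the log2 fold change was 1.17 ± 0.21 (adjusted p = 0.00332), and its call ended with GC and length offsets (adjusted p = 0.186). Of 14 tested mesenchymal markers 2 were called higher and 4 lower, FN1, MMP14 and PDGFRB among the lower (3 and 7 without the library labelled replicate 1). CALD1, an actin-binding protein, was among the higher at 210.3, 157 and 170.3 CPM with KDAC4 H803A and 111, 106, 115 and 91.7 CPM with KDAC4 H976Y. CALD1 differed by a log2 fold change of 0.76 ± 0.19 (adjusted p = 0.0176). The call of CALD1 ended without KDAC4 H803A replicate 3, KDAC4 H976Y replicates 1 or 2 (adjusted p = 0.0522 to 0.0595). In the marker lists of other cell types the called genes were LCP1 of blood cells, higher, and the neuronal tubulin TUBB3, lower, at 104, 53.1 and 40.1 CPM with KDAC4 H803A and 186, 194, 197 and 112 CPM with KDAC4 H976Y. TUBB3 had a log2 fold change of -1.39 ± 0.30 (adjusted p = 0.0102). The call of TUBB3 ended without KDAC4 H803A replicates 2 or 3 (adjusted p = 0.0549 to 0.055). Of 4 epithelial and 4 endothelial markers tested 0 were called in edgeR's test or with DESeq2, and 1 of each was higher at an unadjusted p under 0.05.

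Calls were uneven over chromosomes. Chromosome 13 had 115 genes called higher among 330 tested (34.8%) and 1 called lower, with a median log2 fold change of 0.72 (0.44 without the library labelled replicate 1). Chromosome 9 had 137 called higher among 726 (18.9%) and 17 called lower, with a median of 0.49 (0.46 without that library). Of the 1020 higher and 816 lower genes that met each condition given for individual genes, 70 lay on chromosome 13 and 104 on chromosome 9. FOXO1, ATP7B, SLC7A1, LCP1 and TUBA3C lie on chromosome 13, and PRRC2B, LMX1B, SEMA4D and TUSC1 on chromosome 9, while DOCK8, also on chromosome 9, was lower. Copy number was not measured in these samples, and genotype and a chromosome-wide difference between the lines cannot be told apart for these genes. With GC and length offsets the calls of FTL, TUBB3, LEF1, TWIST2, BOK, PSAP, HSD17B10, SLC2A1 and HDAC7 also ended (adjusted p = 0.053 to 0.0963). On the 7 libraries of the comparison alone the calls of NRP1, SEMA3C, HDAC5, HDAC9, FOXD1 and ADGRE5 ended (adjusted p = 0.0536 to 0.0761). Those of PSAP, SLC2A1, XIAP, IL11 and MAGEA12 ended there too (adjusted p = 0.0572 to 0.109). A replicate term and the absence of a filter on low counts ended further calls, not listed for each gene.

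The genes in which the KDAC4 H803A libraries differed most among themselves are given as a description, with no test, from protein-coding genes with a mean of at least 20 CPM in that group. Above both other replicates, the library labelled replicate 1 had PXDN (ENSG00000130508, chromosome 2, 1631887 to 1744852), a matrix peroxidase that crosslinks collagen IV, at 116, 0 and 0.1096 CPM in the 3 libraries and 0 in KDAC4 H976Y. It had THBS2 (ENSG00000186340, chromosome 6, 169215780 to 169254044), an antiangiogenic matrix protein, at 82.4, 0.0969 and 0 CPM, where KDAC4 H976Y had 121 to 166 CPM. MGST1, a glutathione transferase, stood at 58.1, 3.101 and 2.19 CPM against 41.4 to 57.6 CPM. The tissue plasminogen activator PLAT stood at 426, 37.9 and 43.5 CPM against 84.2 to 107 CPM. In MGST1 the library labelled replicate 1 stood just above KDAC4 H976Y, in THBS2 it stood between that group and replicates 2 and 3, and in PLAT and PXDN it was above every other library of the comparison. CYBRD1, an iron reductase, stood at 70.3, 5.23 and 5.81 CPM against 9.47 to 13.1 CPM. The phosphatase PTP4A1 stood at 267, 25.8 and 21.3 CPM against 112 to 159 CPM.

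Below both other replicates, it had MYH10 (ENSG00000133026, chromosome 17, 8474205 to 8630761), a nonmuscle myosin heavy chain, at 1.58, 142 and 125 CPM against 2.98 to 5.15 CPM in KDAC4 H976Y. GABRA2 (ENSG00000151834, chromosome 4, 46248427 to 46475230), a subunit of a GABA receptor, stood at 1.58, 132 and 109 CPM against 0.563 to 1.52 CPM. The kinesin KIF26A stood at 0, 37.7 and 38.4 CPM against 1.03 to 2.67 CPM. The nuclear envelope protein SYNE3 stood at 0.317, 38.3 and 34.9 CPM against 0.108 to 0.618 CPM. The secreted glycoprotein PAEP stood at 0.253, 85.3 and 63.8 CPM against 2.598 to 6.05 CPM. In each of these 5 genes the library labelled replicate 1 stood near or below KDAC4 H976Y while replicates 2 and 3 were high. IRF7, a regulator of interferon genes, stood at 0.443, 38.8 and 48.6 CPM against 3.46 to 16.1 CPM. The histone gene HIST2H2AA3, which has a near-identical copy, stood at 0, 142 and 81.1 CPM against 192 to 265 CPM. The homeobox gene HOXB13 stood at 3.17, 183 and 135 CPM against 0 to 0.319 CPM. KDAC7 H709A replicate 4, the library from which it differed least, had 116 CPM of PXDN, 84.9 of THBS2, 54.9 of MGST1, 2.68 of MYH10, 1.76 of GABRA2 and 0.0419 of KIF26A, each close to the library labelled KDAC4 H803A replicate 1.

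**Figure D5:**
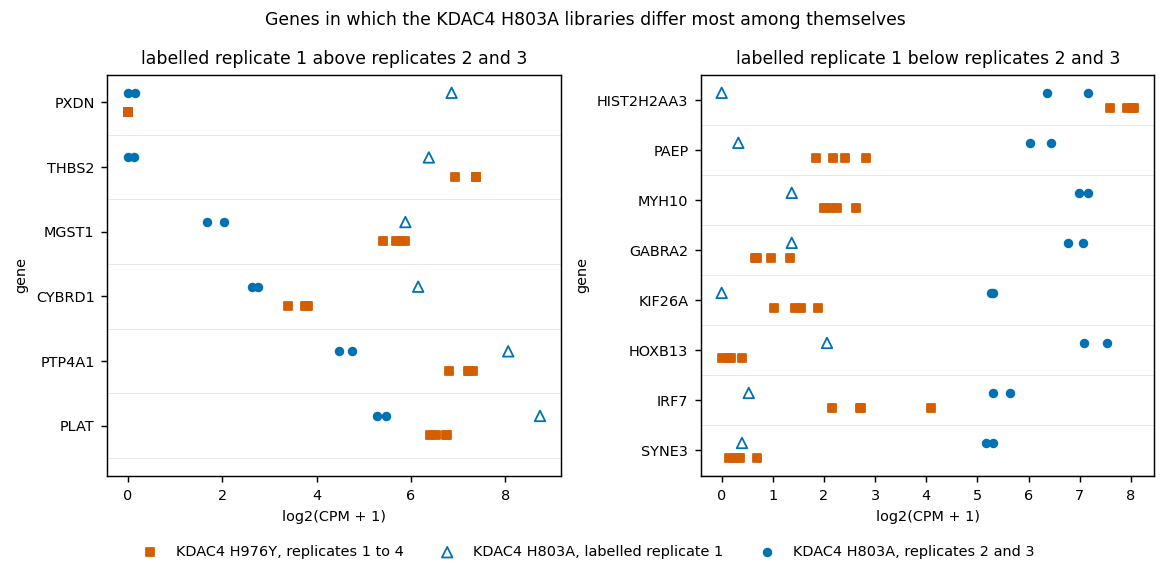
log2(CPM + 1) in each library (x axis) of the genes (y axis) in which the library labelled KDAC4 H803A replicate 1 lay farthest above (left) or below (right) replicates 2 and 3; squares are the 4 KDAC4 H976Y libraries, open triangles the library labelled replicate 1 and filled circles replicates 2 and 3. PXDN was at 116 CPM in that library and at most 0.11 CPM in the other 6, and MYH10 at 1.58 CPM beside 142 and 125 CPM in its own group.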

How the data were processed

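RNA sequencing of HT1080 cells was analysed from 1 table of expected counts per gene, which the authors deposited for 15 samples. Per the submitters' processing notes, Trimmomatic 0.39, Bowtie2 2.4.5, RSEM 1.3.3, DESeq2 1.38.2 and the build GRCh38 were used, with no roles stated. The annotation release and strand setting were not given in the sources used here, so overlapping, antisense and near-identical genes may share reads. Of 60675 gene IDs, 57055 matched GENCODE v29, from which coordinates, types, lengths and GC content were taken, and 56558 had a gene name.

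Expected counts were rounded to whole numbers. A single edgeR 4.0.16 model (R 4.3.3, limma 3.58.1, trimmed mean of M-values scaling, filterByExpr with a minimum count of 10 and a total of 15, quasi-likelihood F test) was fitted to the 14 count libraries of 4 groups, with Benjamini-Hochberg adjustment over the 17780 genes tested and a threshold of 0.05. The fourth KDAC4 H803A column deposited by the authors, with other values than counts, was not used. CPM are counts per 1000000 counts of the scaled library size, and 1 CPM corresponds to 4.86 to 15.8 counts in the 7 libraries. Standard errors come from the fold change and its test statistic. On simulated data with the same means and library sizes (17404 genes), 8 of 100 genes changed 2-fold were called. Of 100 genes changed 4-fold, 78 were called, and there were 2 false calls. Libraries of a simulated group shared 1 mean per gene, and genes were drawn independently. No simulated library lay far from its group, as the library labelled KDAC4 H803A replicate 1 does. The false calls therefore do not describe the error rate in the data.

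The members, the 31 gene lists and the tests were chosen with earlier results of these data known. Individual genes were chosen by rule: from called protein-coding genes without overlap that were also called without the library labelled KDAC4 H803A replicate 1, the 12 per direction with the largest difference of mean CPM and the 10 per direction with the largest fold change at a mean of at least 5 CPM; up to 4 called members per list by adjusted p; the 8 genes per direction in which that library lay farthest above or below the other replicates, at a mean of at least 20 CPM; and the class IIa genes. Genes that this rule gives but the text leaves out, and 1 of the lists, are not reported here. Promoters came from RefSeq (GRCh38.p14) by gene symbol. DESeq2 1.42.0, limma voom, other scalings and filters, GC and length offsets, a replicate term and the omission of each library were the alternatives. Intervals and lower bounds cover counting error only.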

Additional observations from a re-analysis of the deposited data

Results flagged for a closer look

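In 140 groups of 4 libraries examined, 21 values lay far from the other 3 of their group (gap over range above Dixon's 95% critical value for 4), where chance gives about 1 in 20 groups. In 19 of them the library was KDAC4 H976Y replicate 4, the shallowest of the 7. It was above the other 3 for TRIO (686.5 CPM beside 542.1 to 562.1), MTRNR2L1 (11300 CPM beside 5183 to 5540.4), MAML3 (51.49 CPM beside 37.2 to 38.4) and HDAC4 (21.83 CPM beside 15.2 to 15.9). It was also above them in the shares of counts from mitochondrial ribosomal RNA (31.52% beside 16.1% to 17.2%) and mitochondrial mRNA (1.411% beside 0.676% to 0.701%).

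It was below the other 3 for the matrix and adhesion genes FN1 (1487 CPM beside 2324 to 2479), COL6A3 (2334 CPM beside 3110.3 to 3189) and MMP14 (1227 CPM beside 1595 to 1626), and for the receptors NRP2 (211.5 CPM beside 279.5 to 281) and EPHB2 (175.7 CPM beside 249.6 to 259). The same held for FTL (942.9 CPM), PTGES, a prostaglandin synthase (27.39 CPM), TUBB3 (111.8 CPM), PAGE5 (46.96 CPM), UQCRH (113.7 CPM), PSMA7 (120.1 CPM) and SLC2A1 (164.8 CPM). Its share of counts from protein-coding genes was 52.65%, beside 69.0% to 70.4%. The part of its depth and RNA makeup in these values was not tested.

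KDAC4 H976Y replicate 2 stood apart for MEF2D (80.2 CPM beside 71.3 to 72.4) and for FGFR4 (0.1064 CPM beside 0 in the other 3), the latter a single count.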

How the results depend on the processing

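Every alternative kept the direction of the genes it called in common with the reported fit (0 shared calls in the opposite direction), but the number called varied widely with the libraries included. The counts below are genes called in all, higher, lower, and at least 2-fold, beside 2679, 1638, 1041 and 1972. Leaving out single libraries gave 1129 to 8431, 787 to 4167, 335 to 4264, and 951 to 6516, the highest without the library labelled KDAC4 H803A replicate 1 and the lowest without KDAC4 H803A replicate 3 or, for higher genes, KDAC4 H976Y replicate 2. Without KDAC7 H709A replicate 1, which is outside the comparison, they were 4667, 2828, 1839 and 3146, and without it and the library labelled KDAC4 H803A replicate 1 together 11173, 5536, 5637 and 7624. The 7 libraries alone gave 1634, 947 and 687 for the first 3, and without the library labelled replicate 1 11019, 5362, 5657 and 7242. DESeq2 called 4377, 2572 and 1805, and limma voom with sample quality weights 12673, 6512, 6161 and 8154. With no filter on low counts 608 were lower, and with GC and length offsets 1817. These offsets without the library labelled replicate 1, an alternative chosen after seeing the data, gave 7459, 3293, 4166 and 4887. There the log2 fold changes of SRF (-0.0098, adjusted p = 0.982), FOXD1 (-0.051, adjusted p = 0.903) and PHLDA2 (-0.2246, adjusted p = 0.613) changed sign, and the cause was not tested. With the replicate number as a block the counts were 1230, 748, 482 and 1033. Same-numbered libraries of the 2 groups deviated from their group means with correlations of 0.13, -0.13 and -0.32. No KDAC4 H803A library correlated best with its own number. The group mean includes the library labelled KDAC4 H803A replicate 1, which lay far from replicates 2 and 3. These correlations therefore cannot show whether same-numbered libraries shared a batch. Of 140 named genes called, 90 were called with each single library left out in turn and 77 under every alternative that gave a value. Depth limits genes near 1 CPM, and the spread of the KDAC4 H803A group limits detection of changes near 2-fold.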
